A study of Mus musculus with 20 samples.

Results

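The comparison set 2 libraries of Ddx10 knockdown cells at day 5 of reprogramming against 2 libraries of control cells at day 3, over all 15757 genes of the deposited table, and asked which of the changes that control cells made between day 3 and day 5 had been made by the knockdown cells at day 5. These 4 libraries were chosen by their labels, out of 20 in the series. All cells were OG2 mouse embryonic fibroblasts (primary fibroblasts from mice that carry an Oct4-GFP reporter) at passage 2, infected with retroviruses for Oct4, Sox2, Klf4 and c-Myc and kept in iCD1 medium, and they differed in carrying an shRNA against luciferase (control) or against Ddx10 (knockdown). Control cells at day 5 and knockdown cells at day 3, with 2 libraries each, served as the companion groups. The 2 compared groups differ in both the shRNA and the day, and the labels do not tell Ddx10 shRNAs apart, so loss of Ddx10 and other effects of the shRNA cannot be told apart. Replicates are described by the submitters as biological, with no statement that they were separate cultures. What the p-values weigh is therefore the spread among these libraries, which may be technical.

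Reprogramming by the 4 factors starts with loss of fibroblast genes and gain of epithelial genes, the mesenchymal to epithelial transition, and the network of pluripotency genes is switched on later. Ddx10 encodes a DEAD-box RNA helicase that acts in ribosome assembly in the nucleolus. In bulk RNA, fewer cells of a kind and less RNA per cell cannot be told apart.

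Values are normalised read counts, here called levels, and the fold changes are differences of log2(level + 1), which understate changes of low genes. Levels summed to 16250502 and 16297635 in control day 3 and to 15834765 and 15829419 in knockdown day 5, and replicates of a group correlated across genes with r between 0.981 and 0.989. The spacing of the low values gave depth estimates of 16.2 and 18.7 M reads for control day 3 and of 14.0 and 23.7 M for knockdown day 5. A gene was called when limma's adjusted p, fitted over all 20 libraries and adjusted over all genes, was under 0.05. Ddx10 itself (chr9:53098635-53248053, minus strand, mm10) stood at 803 and 841 in control day 3, 796 and 729 in control day 5, 306 and 355 in knockdown day 3 and 426 and 455 in knockdown day 5. Both knockdown libraries lay below every control library, and the fold change of knockdown day 5 against control day 3 was -0.90 ± 0.12 (SE, limma adjusted p = 0.000129). The labels put no library in the wrong arm by this measure.

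Knockdown cells at day 5 had moved past the control day 3 state and lay short of control day 5. On a line drawn from the control day 0 mean (0) to the control day 7 mean (1), over all genes, the control day 3 libraries lay at 0.710 and 0.725 and the knockdown day 5 libraries at 0.853 and 0.843. The control day 5 libraries lay at 0.944 and 0.922, and knockdown day 3 at 0.673 and 0.672. The 4 groups did not overlap. Knockdown day 5 was 0.131 above control day 3 and 0.085 below control day 5, whereas control cells advanced by 0.215 over the same days and knockdown cells by 0.175. With 2 libraries against 2, each of these differences had a two-sided exact permutation p of 0.333, the smallest that the design allows.

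**Figure D1:**
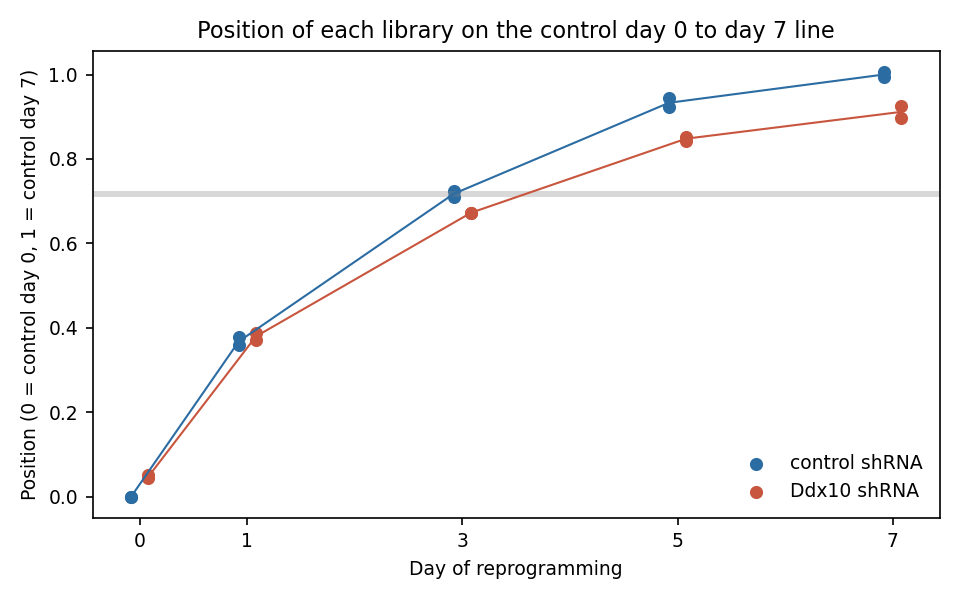
Position of each of the 20 libraries (points) on the line from control day 0 (0) to control day 7 (1), by day of reprogramming and arm, with lines through the group means and a grey band over the 2 control day 3 libraries. Knockdown day 5 (0.853 and 0.843) lies above the band and below control day 5 (0.944 and 0.922).

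Against control day 3, 2433 genes were called in knockdown day 5 (15.4% of those tested), 1317 higher (8.36%) and 1116 lower (7.08%). By at least 1 log2, 482 were higher (3.06%) and 89 lower (0.565%). Leaving out 1 library lowered the count to between 977 (without knockdown day 5 replicate 1) and 1496 (without control day 3 replicate 1), with 1198 without control day 3 replicate 2 and 1441 without knockdown day 5 replicate 2. The control step from day 3 to day 5 had 4931 called genes (31.3%), 2508 higher (15.9%) and 2423 lower (15.4%), and 3237 without control day 5 replicate 1. Both comparisons use the control day 3 libraries, so a library high or low by chance there moves both the same way. Knockdown day 5 against knockdown day 3, which shares no library with the control step, had 2351 called genes (14.9%), 1216 higher (7.72%) and 1135 lower (7.2%), and between 1173 and 1274 without any 1 of its 4 libraries. Knockdown day 5 against control day 5 had 1376 called genes (8.73%), 919 higher (5.83%) and 457 lower (2.9%). A fit of the compared libraries alone gave 887 higher and 804 lower. The count of 1376 was 459 without control day 5 replicate 1, 477 and 835 without knockdown day 5 replicates 1 and 2. Knockdown day 3 against control day 3 had 396 genes called higher (2.51%) and 355 lower (2.25%). The day 3 to 5 step itself was called different between the arms for 35 genes (0.222%).

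Of the 1001 genes that rose by at least 1 log2 in control cells from day 3 to day 5 (6.35% of all genes), 527 were called higher in knockdown day 5 than in control day 3 (52.6%) and 0 were called lower. The 527 became 325 without control day 3 replicate 2 and 280 and 318 without knockdown day 5 replicates 1 and 2. Their median fold change was 1.87 in the control step, 1.2 in knockdown day 5 against control day 3, and -0.65 in knockdown day 5 against control day 5. In knockdown day 5 against knockdown day 3, 576 of them were called higher (57.5%), with a median of 1.26. The 1001 genes were picked by control day 3 and day 5 themselves. A control library low at day 3 or high at day 5 by chance therefore raises the control median. It also favours a rise over control day 3, makes a fall under it unlikely, and favours a shortfall from control day 5. The classes below rest on those calls, whereas the step within the knockdown arm uses neither control group. Each gain was then placed by its 2 calls. It was reached where knockdown day 5 was called above control day 3 and not called below control day 5, partial where both were called, not made where only the shortfall from control day 5 was called, beyond where knockdown day 5 was called above control day 5, and unresolved where neither was called. Reached gains numbered 428 (42.8%), partial 98 (9.79%), not made 58 (5.79%), beyond 1 (Tac2, a tachykinin precursor, named after its values were seen, whose call over control day 5 was lost without control day 5 replicate 1 or either knockdown day 5 library) and unresolved 416 (41.6%). A reached gain is one whose shortfall missed the threshold, which does not show that the level equalled control day 5: the reached gains had a median of 1.65 against 1.97 in the control step. Unresolved gains had a median level of 27.7 and a median standard error of 0.518, whereas reached gains had a median level of 77.0. Not-made gains had a median of 0.38 in knockdown day 5 against control day 3, of -0.59 in knockdown day 3 against control day 3 and of 0.98 in knockdown day 5 against knockdown day 3. Of these 58 genes, 32 were called higher in knockdown day 5 than in knockdown day 3.

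Control losses were divided in the same way, and their selection carries the same limit. Of 492 genes that fell by at least 1 log2 in the control step (3.12%), 162 were called lower in knockdown day 5 than in control day 3 (32.9%), and the median was -0.60 against -1.40 in the control step. By the mirror-image classes, 91 losses were reached (18.5%), 71 partial (14.4%), 140 not made (28.5%) and 190 unresolved. The losses not made had a median of 0.40 in knockdown day 3 against control day 3 and of -0.59 in knockdown day 5 against knockdown day 3. The difference between gains and losses in these shares was not tested. The class counts depended on single libraries. Unresolved gains became 252 without control day 5 replicate 1 and 675 without knockdown day 5 replicate 1, and unresolved losses 295 without the latter. Reached gains fell to 285 and 250 without control day 3 replicates 1 and 2 and to 250 and 276 without knockdown day 5 replicates 1 and 2. Partial gains fell to between 30 and 51 without either library of control day 5 or of knockdown day 5. Gains not made fell to 18 without control day 5 replicate 1 and to 21 without knockdown day 5 replicate 1. Losses not made fell to 77 and 90 without those same 2 libraries, reached losses to 58 without control day 3 replicate 2, and partial losses to between 34 and 45 without control day 3 replicate 1, control day 5 replicate 1 or either knockdown day 5 library.

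**Figure D2:**
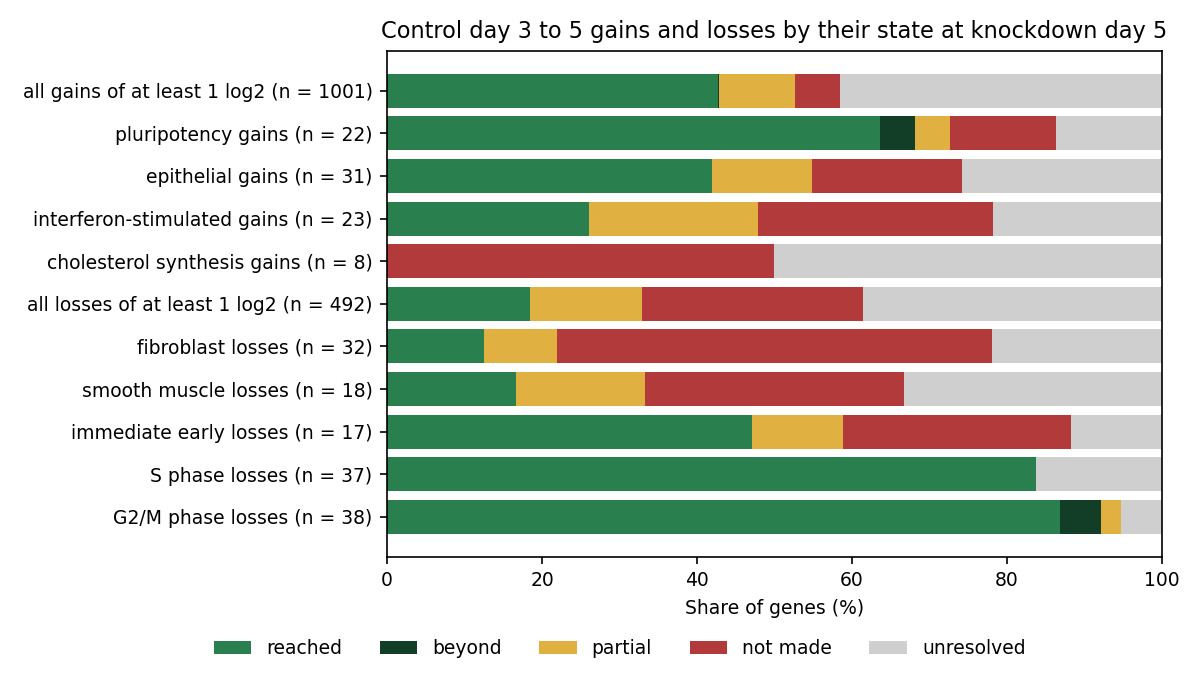
Share (%) of the control day 3 to 5 gains and losses in each class at knockdown day 5, for all gains and losses of at least 1 log2 and for the called gains and losses of any size in 9 gene lists. Reached gains make up 42.8% of large gains and reached losses 18.5% of large losses. Of called gains of any size 36.1% are reached. No cholesterol synthesis gain is in the reached class, and these gains have a median control step of 0.35, against 0.76 for all called gains.

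Some pluripotency genes had risen over control day 3 in the knockdown cells, and most did not pass the test. Among all genes, 8.36% were called higher and 7.08% lower. Of 51 listed genes in the table, 16 were called higher and 2 lower in knockdown day 5 than in control day 3, with a median of 0.47 against 0.02 over all genes. After quantile scaling 15 were called higher and 2 lower, with a median of 0.29 against -0.02 over all genes. In the control step 22 were called higher, with a median of 0.80, and 14 of these 22 gains were reached, 1 was partial, 3 were not made, 1 was beyond and 3 were unresolved. Over all 2508 called gains of any size, 36.1% were reached, 5.74% partial, 9.41% not made and 48.5% unresolved. Without any 1 of the 4 compared libraries the count called higher was 9 or 10.

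Nanog, a homeodomain factor at the centre of the network, was measured at 4.77 and 1.88 in control day 3, 93.7 and 78.0 in control day 5 and 48.5 and 41.5 in knockdown day 5. The knockdown libraries were above both control day 3 libraries and below both control day 5 libraries. The fold change against control day 3 was 3.49 ± 0.60 (SE, limma adjusted p = 0.00122), and the difference from control day 5 was -0.92 (limma adjusted p = 0.421). Esrrb, a nuclear receptor of the same network, went from 5.76 and 1.24 in control day 3 to 45.3 and 33.8 in knockdown day 5, with 97.7 and 89.2 in control day 5. It lay between the 2 control days in both knockdown libraries, and its rise was 3.37 ± 0.65 (limma adjusted p = 0.0029). Dppa5a, an RNA-binding protein of embryonic stem cells, was listed at 0 in both control day 3 libraries and stood at 28 and 18.8 in knockdown day 5 and 69.4 and 61.3 in control day 5. Sall1, a zinc finger factor, stood at 94.9 and 126 in control day 3, 376 and 379 in control day 5 and 319 and 336 in knockdown day 5. The knockdown libraries were close below the control day 5 pair and well above control day 3, with a fold change of 1.57 ± 0.20 (limma adjusted p = 9.09e-05).

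Tdh and Enpp3 had higher levels in both knockdown day 5 libraries than in all 4 control libraries of days 3 and 5. Tdh encodes threonine dehydrogenase, which feeds one-carbon metabolism in mouse embryonic stem cells. Its levels were 1637 and 1618 in control day 3, 2150 and 2119 in control day 5 and 3006 and 2989 in knockdown day 5, and the groups did not overlap. The rise over control day 3 was 0.88 ± 0.10 (limma adjusted p = 3.78e-05). The excess over control day 5 was 0.49 (limma adjusted p = 0.00537), and its adjusted p was 0.0506 without control day 5 replicate 1 and 0.0586 without knockdown day 5 replicate 1. Enpp3, an ectonucleotidase, was at 195 and 185 in control day 3, 537 and 524 in control day 5 and 829 and 624 in knockdown day 5. Its rise of 1.92 ± 0.14 was called (limma adjusted p = 1.2e-06), and its difference of 0.44 from control day 5 was not (limma adjusted p = 0.0751).

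Klf2, a Krüppel-like factor of naive pluripotency, and Jarid2, a subunit of Polycomb repressive complex 2, were behind. Klf2 stood at 221 and 241 in control day 3, 638 and 555 in control day 5 and 294 and 275 in knockdown day 5. The knockdown libraries were just above control day 3, by 0.30 ± 0.13 (limma adjusted p = 0.141), and were 1.06 below control day 5 on the log2 scale (limma adjusted p = 0.000121). In knockdown day 3 Klf2 was at 126 and 120, so within the knockdown arm it rose by 1.21 (limma adjusted p = 2.26e-05). Jarid2 was at 860 and 1107 in control day 3, 2385 and 2420 in control day 5 and 1563 and 1592 in knockdown day 5, a partial gain of 0.69 ± 0.10 (limma adjusted p = 0.000313).

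The counts of the 4 delivered factors mix viral and endogenous copies. Pou5f1 (Oct4) was at 14984 and 15461 in control day 3 and 14149 and 13585 in knockdown day 5, and its difference of -0.13 was not called (limma adjusted p = 0.164). Sox2 went from 9797 and 9255 to 6979 and 7174, a fall of -0.43 ± 0.08 (limma adjusted p = 0.00258), and Myc from 1329 and 1314 to 746 and 891, a fall of -0.70 ± 0.09 (limma adjusted p = 0.000182). In control day 5 Sox2 was at 6388 and 6180 and Myc at 864 and 762.

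Some epithelial genes had risen over control day 3, beside 8.36% called higher and 7.08% lower among all genes. Of 45 genes, 17 were called higher and 2 lower than control day 3, with a median of 0.48, whereas 31 were called higher in the control step, with a median of 1.31. Against control day 5, 10 were called lower and 1 higher. Of the 31 control gains 13 were reached, 4 partial, 6 not made and 8 unresolved, against 36.1%, 5.74%, 9.41% and 48.5% over all called gains. Without any 1 of the 4 compared libraries, between 9 and 11 were called higher. The classes and the calls against control day 5 were not recounted without 1 library, for this or any other list.

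The reached gains included Rab25, a small GTPase of epithelial recycling endosomes. It was at 0.815 and 4.67 in control day 3, 113 and 93.9 in control day 5 and 58.4 and 44.0 in knockdown day 5. Both knockdown libraries were far above control day 3 and below control day 5, and the rise was 4.01 ± 0.50 (limma adjusted p = 8.7e-05). Grhl2, a transcription factor of epithelial genes, went from 1.36 and 0.826 to 39.0 and 19.3, with 43.8 and 41.7 in control day 5. One knockdown library was near the control day 5 pair and the other lower, and the rise was 3.78 ± 0.48 (limma adjusted p = 0.000106). Dsg2, a cadherin of desmosomes, went from 119 and 125 to 547 and 547, with 1179 and 918 in control day 5, a rise of 2.16 ± 0.40 (limma adjusted p = 0.0023).

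Cldn4, a claudin of tight junctions, was a partial gain. It stood at 38.1 and 37.6 in control day 3, 1036 and 1019 in control day 5, 22.8 and 18.9 in knockdown day 3 and 285 and 272 in knockdown day 5. Knockdown day 5 lay between the 2 control days without overlap, 2.85 ± 0.33 above day 3 (limma adjusted p = 5.19e-05) and -1.88 from day 5 (limma adjusted p = 0.002). Of the keratins of simple epithelium, Krt7 was called higher and Krt8, Krt18 and Krt19 were not. Krt7 was at 44.8 and 18.6 in control day 3, 181 and 176 in control day 5 and 68.6 and 56.0 in knockdown day 5, higher than control day 3 by 1.07 (limma adjusted p = 0.0293). That call was lost without control day 3 replicate 2 (limma adjusted p = 0.363) and without knockdown day 5 replicate 1 (0.185) or 2 (0.0671). Krt8 was at 1100 and 951 in control day 3, 4205 and 3860 in control day 5, 519 and 470 in knockdown day 3 and 1266 and 1341 in knockdown day 5. Its knockdown day 5 level was slightly over control day 3, by 0.35 ± 0.13 (limma adjusted p = 0.0939), and -1.63 from control day 5 (limma adjusted p = 1.14e-05), although within the knockdown arm it rose by 1.40 (limma adjusted p = 7.3e-06). Its partner Krt18 was at 345 and 293 in control day 3, 917 and 885 in control day 5, 421 and 433 in knockdown day 3 and 427 and 445 in knockdown day 5. Its knockdown day 5 level was 0.46 over control day 3 without a call (limma adjusted p = 0.0526), and the difference between the knockdown days was 0.03 ± 0.15 (limma adjusted p = 0.926). Krt19 was at 707 and 594 in control day 3, 1077 and 1113 in control day 5 and 489 and 520 in knockdown day 5, below both control days in both libraries, with a difference of -0.36 from control day 3 that was not called (limma adjusted p = 0.0642). Cdh1, E-cadherin, was at 2680 and 3083 in control day 3, 9014 and 8282 in control day 5 and 4514 and 4191 in knockdown day 5. Its difference of 0.60 ± 0.26 from control day 3 was not called (limma adjusted p = 0.146). Its shortfall of -0.99 from control day 5 was called (limma adjusted p = 0.0308), but not without any 1 of the control day 5 or knockdown day 5 libraries, with adjusted p between 0.0889 and 0.182.

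**Figure D3:**
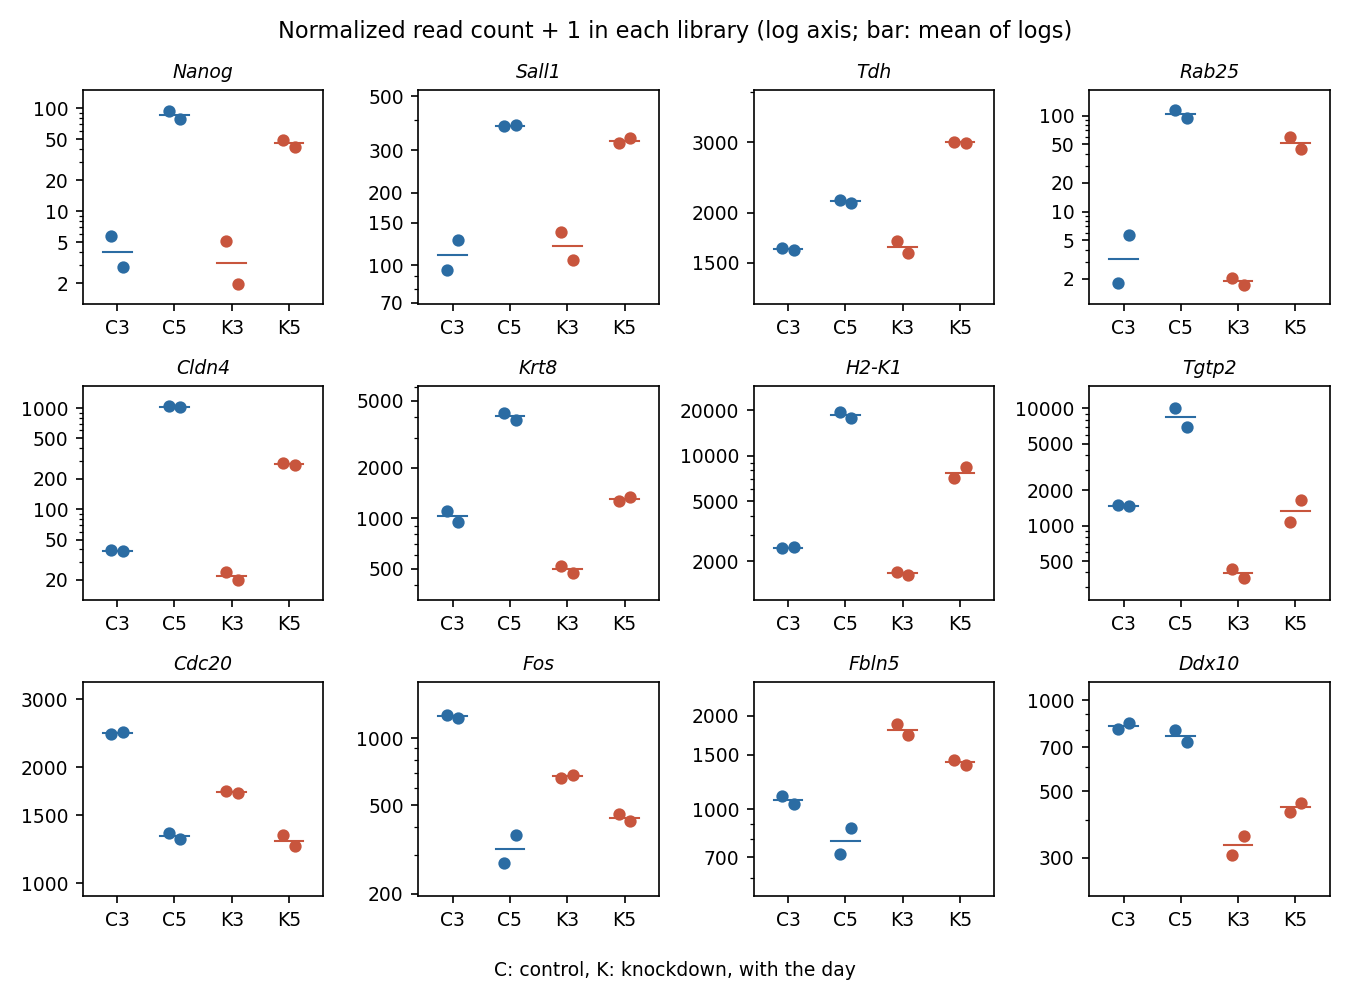
Normalised read count plus 1 (log axis) of 12 genes in the 2 libraries of control day 3 (C3), control day 5 (C5), knockdown day 3 (K3) and knockdown day 5 (K5), with a bar at the mean of the logs. Nanog, Rab25, Cldn4 and H2-K1 at K5 lie between C3 and C5, Tdh lies above both, and Krt8 and Tgtp2 lie near C3.

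Some interferon-stimulated genes had risen, and most did not pass the test. Among all genes, 8.36% were called higher and 7.08% lower than control day 3. Of 59 in the table, 12 were called higher and 2 lower than control day 3, with a median of 0.23, against 23 higher and 0 lower in the control step, with a median of 0.67. In knockdown day 5 against control day 5, 15 were called lower and 0 higher. Of the 23 control gains 6 were reached, 5 partial, 7 not made and 5 unresolved. The shares over all called gains were 36.1%, 5.74%, 9.41% and 48.5% in the same order. The count called higher was 8 without any 1 of the 4 compared libraries.

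H2-K1 and H2-D1, MHC class I heavy chains, and their partner chain B2m, which present peptides at the cell surface, were partial gains. H2-M3, another class I heavy chain, was a reached gain, 0.86 over control day 3 (limma adjusted p = 0.0312) and -0.79 from control day 5 (limma adjusted p = 0.0677). H2-K1 was at 2452 and 2476 in control day 3, 19603 and 17651 in control day 5, 1701 and 1624 in knockdown day 3 and 7131 and 8401 in knockdown day 5. Knockdown day 5 lay between the control days without overlap, 1.65 ± 0.09 above day 3 (limma adjusted p = 4.77e-08) and -1.26 from day 5 (limma adjusted p = 4.6e-06). H2-D1 was at 2843 and 2704 in control day 3, 12881 and 11852 in control day 5 and 5933 and 6991 in knockdown day 5, a rise over control day 3 (limma adjusted p = 3.75e-07) and a shortfall of -0.94 from control day 5 (limma adjusted p = 1.14e-05). B2m, the shared light chain, was at 14185 and 16412 in control day 3, 39980 and 40612 in control day 5 and 24969 and 26572 in knockdown day 5, a rise of 0.76 ± 0.11 (limma adjusted p = 0.000449). All 3 lay between the 2 control days in both knockdown libraries. Reads of H2-K1 and H2-D1 can be split between near copies, so the value of each alone is uncertain.

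The promoters of these 3 genes are shown because the genes moved together. They are the 180 bases before the first start that RefSeq's table lists (GRCm38.p6), on the gene's strand, for H2-K1 at chr17:34000348-34000527 (minus), H2-D1 at chr17:35262914-35263093 (plus) and B2m at chr2:122147507-122147686 (plus). Capitals mark matches, on either strand, to the kappa B site GGGATTCCC, the short interferon response core GAAGTGAAA and the looser core GAAANNGAA.
H2-K1: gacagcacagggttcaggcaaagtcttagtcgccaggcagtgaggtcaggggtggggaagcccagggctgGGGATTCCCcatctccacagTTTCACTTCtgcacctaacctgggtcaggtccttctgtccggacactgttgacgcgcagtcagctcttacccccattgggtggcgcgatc
H2-D1: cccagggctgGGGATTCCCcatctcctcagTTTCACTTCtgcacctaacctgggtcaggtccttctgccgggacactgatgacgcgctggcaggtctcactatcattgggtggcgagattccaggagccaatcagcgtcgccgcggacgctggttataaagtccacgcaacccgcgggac
B2m: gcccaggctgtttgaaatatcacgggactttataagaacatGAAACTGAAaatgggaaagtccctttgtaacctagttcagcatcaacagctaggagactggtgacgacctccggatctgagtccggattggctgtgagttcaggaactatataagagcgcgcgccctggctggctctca
The kappa B letters were found in 84 of 27025 promoters (0.311%), the short core in 116 (0.429%) and the looser core in 1934 (7.16%), counting the 250 bases before the first listed start. The looser core was in 20 of 45 promoters of the interferon list that had an entry (44.4%). Over the 11336 promoters of genes in the expression table, to which that list was limited, it was in 6.04%. The kappa B letters and the short core were each in 0.406% of those 11336. H2-K1 and H2-D1 share a run of 47 bases. A match describes letters and not a site in use.

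Tap1 and Tgtp2 were among the gains not made. Tap1, a peptide transporter, was at 2762 and 2710 in control day 3, 4789 and 4285 in control day 5, 1666 and 1480 in knockdown day 3 and 2341 and 2678 in knockdown day 5. It was below control day 3 in both libraries by a difference of -0.13 that was not called (limma adjusted p = 0.567), and -0.86 from control day 5 (limma adjusted p = 0.00078). Within the knockdown arm it rose by 0.67 (limma adjusted p = 0.00259). Tgtp2, a GTPase with a near-identical copy, so that its value is uncertain, was at 1503 and 1465 in control day 3, 10068 and 6987 in control day 5, 430 and 356 in knockdown day 3 and 1087 and 1649 in knockdown day 5. The knockdown day 5 libraries lay on either side of control day 3 (limma adjusted p = 0.874) and far under control day 5, by -2.65 (limma adjusted p = 0.00287). Other interferon genes were reached gains, whose shortfall from control day 5 was not called. Ifi27l2a was at 138 and 164 in control day 3, 999 and 1132 in control day 5 and 730 and 819 in knockdown day 5, a rise of 2.35 ± 0.29 (limma adjusted p = 7.47e-05). Lgals3bp, a secreted glycoprotein, was at 4483 and 3615, 6007 and 6668 and 6399 and 7058 in the same order, a rise of 0.74 ± 0.14 (limma adjusted p = 0.00243). Bst2, which tethers budding viruses, was at 3201 and 3396, 7252 and 7115 and 5644 and 6870, a rise of 0.92 ± 0.16 (limma adjusted p = 0.00125). Ifi27l2a and Bst2 lay below both control day 5 libraries in both knockdown libraries, and Lgals3bp did not.

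Among the genes with the largest gains in the control step, 3 more stood out as not made. Slc16a3, a lactate exporter, was at 39.4 and 20.3 in control day 3, 411 and 187 in control day 5 and 25 and 21.4 in knockdown day 5. It was within the control day 3 range and -3.53 from control day 5 (limma adjusted p = 4.81e-05). Mst1r, a receptor tyrosine kinase, was at 132 and 94.7, 1151 and 626 and 210 and 203 in the same order, -2.03 from control day 5 (limma adjusted p = 0.00633), with adjusted p of 0.106 without control day 5 replicate 1 and 0.0539 without knockdown day 5 replicate 1. Pla2g4c, a phospholipase, was at 127 and 130, 776 and 622 and 191 and 245, above control day 3 by 0.75 ± 0.29 without a call (limma adjusted p = 0.0979). The largest reached gains included Bhmt, which remethylates homocysteine. It was at 15.7 and 28.7 in control day 3, 335 and 306 in control day 5 and 333 and 263 in knockdown day 5, a rise of 3.74 ± 0.36 (limma adjusted p = 1.01e-05), and its knockdown day 5 libraries fell inside or below the control day 5 pair.

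Fibroblast genes showed few of the falls of the control step. Against control day 3, all genes had 8.36% called higher and 7.08% lower. Of 52 genes, 8 were called higher and 7 lower than control day 3, with a median of 0.07, against 1 higher and 32 lower in the control step, with a median of -0.39. In knockdown day 5 against control day 5, 25 were called higher and 0 lower. Of the 32 control losses 18 were not made, 4 were reached, 3 partial and 7 unresolved. Over all 2423 called losses of any size, 24.6% were not made, 31.0% reached, 5.94% partial and 38.3% unresolved. Within the knockdown arm 21 of the 52 fell from day 3 to day 5 and 2 rose. The count called higher over control day 3 was between 4 and 7 without 1 compared library, and the count called lower between 2 and 5.

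Fbln5, an elastic fibre protein, was at 1100 and 1037 in control day 3, 717 and 870 in control day 5, 1885 and 1730 in knockdown day 3 and 1441 and 1391 in knockdown day 5. Knockdown day 5 was above all 4 control libraries and below knockdown day 3, with a rise of 0.41 ± 0.08 over control day 3 (limma adjusted p = 0.0029) and of 0.84 over control day 5 (limma adjusted p = 1.96e-05). Lox, which cross-links collagen, was at 2462 and 2508 in control day 3, 1846 and 2253 in control day 5, 4076 and 4073 in knockdown day 3 and 3391 and 3180 in knockdown day 5. It too stood above all control libraries, by 0.40 over control day 3 (limma adjusted p = 0.00424, and 0.0578 without knockdown day 5 replicate 1). Prrx1, a homeobox factor of mesenchyme, did fall, from 6124 and 6904 to 4320 and 3970, with 3886 and 4397 in control day 5, a change of -0.65 ± 0.11 (limma adjusted p = 0.00122). Col1a1, the main fibrillar collagen chain, was at 27935 and 28442 in control day 3 and 31832 and 31433 in knockdown day 5, a difference of 0.17 that was not called (limma adjusted p = 0.359).

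Smooth muscle contractile genes, which mark activated fibroblasts, showed a smaller difference from control day 3. Among all genes, 7.08% were called lower and 8.36% higher. Of 21, 6 were called lower and 1 higher, with a median of -0.27, against 18 lower and 0 higher in the control step, with a median of -0.67. Without 1 compared library 2 to 4 were called lower. Tagln2, an actin-binding protein, was at 5194 and 5143 in control day 3, 3879 and 4042 in control day 5 and 3866 and 3801 in knockdown day 5, a reached loss of -0.43 ± 0.07 (limma adjusted p = 0.00066). Tpm2, a tropomyosin, was at 819 and 704, 294 and 323 and 516 and 459 in the same order, a partial loss of -0.64 ± 0.13 (limma adjusted p = 0.00362), with a shortfall of 0.66 from control day 5 (limma adjusted p = 0.00461, and 0.0685 and 0.0728 without control day 5 or knockdown day 5 replicate 1). In Dgkk and Spp1, single genes outside this list, knockdown day 5 lay nearer to control day 3 than to control day 5. Dgkk, a diacylglycerol kinase, was at 103 and 131 in control day 3, 12.9 and 12.6 in control day 5, 185 and 200 in knockdown day 3 and 75.0 and 73.3 in knockdown day 5. Its knockdown day 5 level was below control day 3 without a call (-0.64 ± 0.29, limma adjusted p = 0.15) and 2.45 above control day 5 (limma adjusted p = 8.47e-05). Spp1, the secreted protein osteopontin, was at 9440 and 7341, 3084 and 4447 and 7867 and 7771 in control day 3, control day 5 and knockdown day 5, with both knockdown libraries inside the control day 3 range.

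Cell cycle genes were lower than in control day 3, and most of the control losses were reached. Over all genes 7.08% were called lower and 8.36% higher, and 31.0% of all called losses were reached. Of 50 S phase genes, 32 were called lower and 1 higher than control day 3, with a median of -0.49, and in the control step 37 were called lower and 2 higher, with a median of -0.47. Of 54 G2/M genes, 40 were called lower and 0 higher, with a median of -0.60, against 38 and 0 in the control step, with a median of -0.53. Of the control losses, 31 of 37 were reached in S phase (6 unresolved), and in G2/M 33 of 38 were reached, 1 was partial, 2 were beyond and 2 unresolved. Against control day 5, 0 S phase genes were called by limma in either direction, which does not show equal levels, and 1 G2/M gene was called higher and 2 lower. Against knockdown day 3, 9 of 50 and 9 of 54 were called lower. Between 22 and 28 S phase and between 33 and 42 G2/M genes were called lower without 1 compared library.

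Cdc20, which activates the anaphase-promoting complex, was at 2433 and 2469 in control day 3, 1352 and 1298 in control day 5, 1728 and 1713 in knockdown day 3 and 1330 and 1246 in knockdown day 5. The knockdown day 5 libraries overlapped control day 5 and lay below control day 3, by -0.93 ± 0.08 (limma adjusted p = 3.72e-06). Plk1, a mitotic kinase, was at 1798 and 1941, 1150 and 1073, 1184 and 1242 and 909 and 1030 in the same order, a fall of -0.95 ± 0.08 (limma adjusted p = 3.72e-06). Rrm2, a subunit of ribonucleotide reductase, went from 3363 and 3367 in control day 3 to 1964 and 2100 in knockdown day 5, with 2085 and 1866 in control day 5, a fall of -0.73 ± 0.09 (limma adjusted p = 5.66e-05). Dnmt1, which copies DNA methylation in S phase, went from 5681 and 5809 to 3869 and 3898, with 3942 and 3680 in control day 5, a fall of -0.56 ± 0.07 (limma adjusted p = 5.19e-05).

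The promoters of Cdc20 (chr4:118437344-118437523, minus) and Plk1 (chr7:122159255-122159434, plus) are shown as examples of the genes that fell together, from the same RefSeq table, build and window. Capitals mark CCAAT and the cell cycle homology core TTTGAA on either strand.
Cdc20: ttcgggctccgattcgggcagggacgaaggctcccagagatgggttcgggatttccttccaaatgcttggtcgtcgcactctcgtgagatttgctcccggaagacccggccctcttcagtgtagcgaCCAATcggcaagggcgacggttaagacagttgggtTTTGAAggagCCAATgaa
Plk1: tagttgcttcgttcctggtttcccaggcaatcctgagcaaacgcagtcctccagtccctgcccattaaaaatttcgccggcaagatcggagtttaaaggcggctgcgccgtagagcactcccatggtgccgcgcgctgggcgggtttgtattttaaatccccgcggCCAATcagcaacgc
CCAAT was found in 33 of 44 G2/M promoters with an entry (75.0%), 25 of 40 S phase promoters (62.5%) and 34.5% of all promoters. TTTGAA was found in 12 of the 44 (27.3%), 5 of the 40 (12.5%) and 16.3% of all promoters. The list promoters belong to genes in the expression table. Over the 11336 promoters of such genes, CCAAT was in 36.2% and TTTGAA in 10.8%.

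Immediate early genes, which follow growth factor signals within minutes, had fallen for some members. Among all genes, 7.08% were called lower and 8.36% higher than control day 3. Of 26, 10 were called lower and 0 higher than control day 3, with a median of -0.12, against 17 lower and 4 higher in the control step, with a median of -0.62. Against control day 5, 7 were called higher and 3 lower. Fos, a subunit of AP-1, was at 1272 and 1233 in control day 3, 274 and 368 in control day 5 and 457 and 422 in knockdown day 5. The groups did not overlap, and the fall of -1.51 ± 0.16 was called (limma adjusted p = 2.82e-05). Fosb was at 158 and 229, 33.6 and 28.5 and 20.3 and 31.6 in the same order, a fall of -2.86 ± 0.27 (limma adjusted p = 7.48e-06). Its knockdown day 5 libraries overlapped control day 5.

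Some genes of ribosome assembly, the process in which Ddx10 acts, were lower, and most did not pass the test. The share over all genes was 7.08% called lower and 8.36% higher. Of 49 small subunit assembly genes, 18 were called lower and 0 higher than control day 3, with a median of -0.22, and Ddx10 is 1 of the 18. In the control step 18 were called lower and 1 higher, with a median of -0.18. Of 50 large subunit assembly genes, 17 were called lower and 0 higher, with a median of -0.18, against 17 and 0 and a median of -0.22. These counts fell to 5 and 5 without knockdown day 5 replicate 1, to 9 and 7 without control day 3 replicate 2, and the second to 6 without control day 3 replicate 1. Nop58, a box C/D snoRNP protein, went from 3023 and 2745 to 2026 and 2012, with 1993 and 2192 in control day 5, a fall of -0.51 ± 0.08 (limma adjusted p = 0.000491).

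None of the control gains among cholesterol synthesis genes was reached, against 36.1% over all called gains. These 8 gains were small, with a median of 0.35 in the control step, whereas all 2508 called gains had a median of 0.76. For the counts below, 8.36% of all genes were called higher and 7.08% lower than control day 3. Of 25 genes, 0 were called higher and 6 lower than control day 3 by limma, with a median of -0.13, against 8 higher and 3 lower in the control step, with a median of 0.09. Of the 8 gains 4 were not made and 4 unresolved. Without 1 compared library 1 to 4 were called lower. Of 24 glycolysis genes, 5 were called higher and 6 lower, against 7 higher and 2 lower in the control step, and without 1 compared library 3 to 5 were called higher and 1 to 3 lower. Aldoc, an aldolase, was at 248 and 203, 1628 and 1578 and 628 and 621 in control day 3, control day 5 and knockdown day 5, a partial gain of 1.47 ± 0.19 (limma adjusted p = 9.74e-05).

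**Figure D4:**
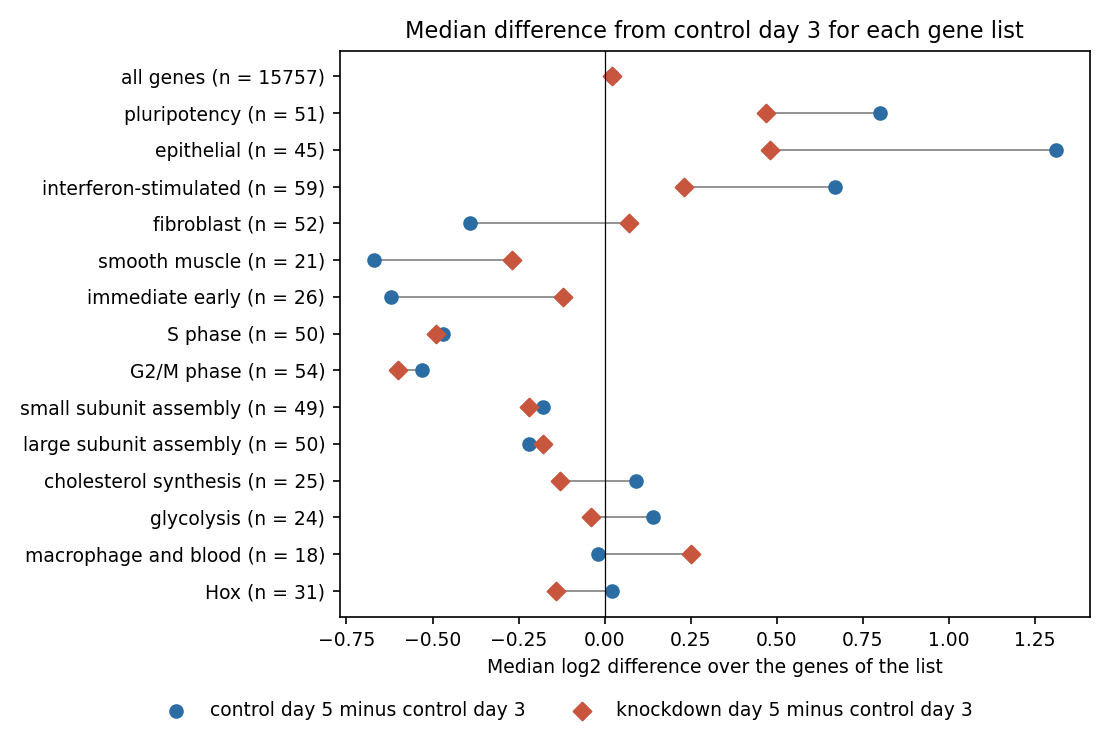
Median log2 difference from control day 3 over the genes of each list, for control day 5 (circles) and knockdown day 5 (diamonds), with the number of genes in brackets. The S phase medians (-0.47 and -0.49) lie together, whereas the fibroblast medians (-0.39 and 0.07) lie on opposite sides of 0.

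Some genes of knockdown day 5 lay off the control course. Of the 1317 called rises over control day 3, 1056 were also control gains, 8 were control losses and 253 had no called control step. Of the 1116 falls, 898 were control losses, 0 were control gains and 218 had no called control step. These shared counts use the same control day 3 libraries on both sides. Knockdown day 5 was called above both control day 3 and control day 5 for 98 genes (0.622%) and below both for 34 (0.216%). Among genes named after their values were seen, Tchh, the hair sheath protein trichohyalin, was at 287 and 264 in control day 3, 322 and 342 in control day 5, 453 and 433 in knockdown day 3 and 724 and 741 in knockdown day 5. Knockdown day 5 was above every other group, by 1.41 ± 0.13 over control day 3 (limma adjusted p = 7.48e-06). Tshr, the thyrotropin receptor, was at 150 and 131, 92.3 and 125, 174 and 192 and 275 and 243 in the same order, a rise of 0.88 ± 0.15 (limma adjusted p = 0.00115). Below both controls were Krt13, a keratin of stratified epithelium, and Samhd1, which hydrolyses deoxynucleotides. Krt13 was at 493 and 410 in control day 3, 479 and 437 in control day 5, 331 and 322 in knockdown day 3 and 235 and 221 in knockdown day 5, a fall of -0.98 ± 0.15 (limma adjusted p = 0.000595). Samhd1 was at 2708 and 2779, 3511 and 2592, 1450 and 1643 and 1521 and 1806 in the same order, a fall of -0.73 ± 0.13 (limma adjusted p = 0.00147). In both knockdown days it was below every control library.

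Markers of other cell types were examined in the same way, beside 8.36% called higher and 7.08% lower among all genes. Of 18 macrophage and blood markers 0 were called by limma in either direction, with a median of 0.25 that was -0.01 after quantile scaling. Their summed level was 1217 and 1255 in control day 3, 1291 and 1122 in control day 5 and 1356 and 1367 in knockdown day 5, and 7 of the 18 were under 10 in all 4 compared libraries. Csf1r, which defines macrophages, was at 7.97 and 13.8 in control day 3 and 7.85 and 12.1 in knockdown day 5. Of 11 endothelial markers 0 were called. Of 14 neural markers 1 was called higher and 4 lower, among them Tubb3, a tubulin, which fell from 1464 and 1408 to 570 and 655, with 625 and 580 in control day 5. The part of other cell types in the results was not tested.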

How the data were processed

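RNA was measured in 20 libraries of mouse fibroblasts under reprogramming (10 groups of 2). Total RNA was extracted with TRIzol, and mRNA libraries were read as paired ends on an Illumina HiSeq, per the labels' protocols. The submitters' processing notes name mm10, DESeq2 1.22.0, RSEM 1.2.22, STAR 2.5.2a and Trim Galore 0.4.4, without roles. The deposited values are a normalised signal, non-integer read counts per gene scaled between libraries; the scaling is not given in the sources used here. Between 44.9% and 63.3% of low values were within 0.1 of a whole number of steps, so whole reads could not be recovered and no count test was run.

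Levels were tested as log2(value + 1) with limma 3.58.1 (R 4.3.3) over all 20 libraries, with 10 group means, a variance trend and robust moderation, and Benjamini-Hochberg adjustment over 15757 genes. The filter, a value of at least 1 in at least 2 libraries, removed 0 genes. A reached, partial or not made class follows from the calls at 0.05. In a test on simulated data, 84% of 100 genes changed by 1 log2 and 39% of 100 changed by 0.5 were recovered, with 5 false calls. No share was obtained for low genes, so 84% and 39% do not give the chance of calling a change in them. The unresolved large gains had a median level of 27.7. Their median standard error was 0.518, against 0.156 over all genes, and recovery at such a spread was not tested. Replicate numbers did not pair libraries across groups (45 correlations of deviations between -0.0732 and 0.0838).

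The gene lists (27) and the genes were chosen with earlier results of these data known. Named were Ddx10, the 8 largest rises and falls with a mean of at least 50, the 6 largest gains and 4 largest losses of each class, and the 4 genes of smallest p in each list; the text describes a selection of these, and 1 gene is not reported here. Krt8, H2-M3, Krt18, Krt19, Cdh1, Nanog, Esrrb, Klf2, Jarid2, Dsg2, B2m, Tap1, Lgals3bp, Bst2, Spp1, Col1a1, Csf1r, the delivered factors the genes whose step differed between arms and those outside both controls were chosen after their values were seen. Of 15757 identifiers 15665 were in GENCODE. Promoters came from RefSeq (GRCm38.p6), with an entry for 11336 of the genes by symbol. Alternatives were another scaling, pseudocounts of 0.1 and 5, 2 filters, fewer libraries, a replicate block, library weights and each library left out.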

Additional observations from a re-analysis of the deposited data

Results flagged for a closer look

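The day 3 to 5 step itself differed between the arms for 35 genes (limma adjusted p under 0.05 for the interaction, 0.222% of those tested), a test added after seeing the data. The 8 named genes with the smallest p are given as the knockdown step minus the control step on the log2 scale. Among genes that rose in control cells, the difference was -1.47 for Krt18, a keratin, for which no rise was called in knockdown cells, -1.31 for Atp1b1, a sodium pump subunit, -0.99 for Fgfbp1, which releases growth factors from matrix, -0.84 for H2-D1, an MHC class I chain, and -0.81 for Gpnmb, a membrane glycoprotein. Among genes that fell in control cells, it was 1.48 for Egr1, an immediate early factor. It was 0.98 for Stmn2, which binds tubulin, and 0.95 for Hspa12b, a heat shock protein relative. For Egr1 no fall was called from knockdown day 3 to knockdown day 5, but knockdown day 5 was called below control day 3. That call was lost without control day 3 replicate 1 (fold change -0.64) or knockdown day 5 replicate 2 (-0.59). Atp1b1 was at 173 and 177 in control day 3, 2342 and 2279 in control day 5, 145 and 168 in knockdown day 3 and 856 and 809 in knockdown day 5. Both arms rose and the groups at day 5 did not overlap.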

How the results depend on the processing

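There were 2 libraries a group, and leaving 1 out assumes that the lone library varies like the other groups. Without 1 library in turn, called genes numbered 977 to 1496 (2433 with all) in knockdown day 5 against control day 3, 3237 to 3579 (4931) in the control step, 459 to 974 (1376) in knockdown day 5 against control day 5 and 1173 to 1274 (2351) in knockdown day 5 against knockdown day 3. The large control gains called in knockdown day 5 (527) numbered 280 to 467. The position difference (0.131) was 0.127 to 0.131 without 1 library of control day 0 or day 7, and 0.106 among genes with a mean of at least 50, a filter that left 330 of 488 large gains called. Library weights raised the count against control day 5 to 2188 and against knockdown day 3 to 3542. With the replicate block the counts were 2274, 4785, 1259, 2208 and 509 in the order above; it changed no count by over 1.5 times. Fitting the compared libraries alone split the calls against control day 5 into 887 higher and 804 lower, against 919 and 457. No change of direction occurred among 160 named genes called in the first comparison, under any alternative run; 153 stayed called under quantile scaling, 137 with a pseudocount of 0.1, 150 with the compared libraries alone, and at least 112 without any 1 of the 4 compared libraries. All 160 genes had been called in the main fit, and every alternative reused its libraries, so a reversal was unlikely from the start. The causes of the changes between alternatives were not tested.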

Other observations

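In lists on signalling and stress, not described above, some genes were called against control day 3. Over all genes, 8.36% were called higher and 7.08% lower. Of 36 genes of Wnt, BMP and TGF-beta signalling, 5 were called higher and 2 lower in knockdown day 5, against 10 and 10 in the control step. The 5 became 3 and the 2 became 1 without knockdown day 5 replicate 1. Dkk2, a Wnt antagonist, rose from 514 and 471 to 844 and 856, with 822 and 991 in control day 5 (0.79 ± 0.11, limma adjusted p = 0.000237). Id3, a BMP target, rose from 683 and 537 to 984 and 1155, with 1243 and 1386 in control day 5 (0.82 ± 0.11, limma adjusted p = 0.000255). Of 38 stress response genes 6 were called higher and 5 lower; the 5 became 3 without control day 3 replicate 2 or knockdown day 5 replicate 1. Slc7a11, the cystine transporter, rose from 810 and 943 to 1899 and 1603 (1.00 ± 0.14, limma adjusted p = 0.000293), and Phgdh, the first enzyme of serine synthesis, fell from 1613 and 1431 to 834 and 972 (-0.75 ± 0.09, limma adjusted p = 5.46e-05). Of 24 senescence and secretory genes 3 were called higher and 3 lower, whereas 8 were called higher and 1 lower than control day 5. Of 26 genes of the p53 pathway 3 were called higher and 3 lower, of 16 DNA methylation genes 1 and 2, and of 31 Hox genes 0 and 1. Without any 1 of the 4 compared libraries these calls ranged, higher and lower, from 2 to 3 and 1 to 2 for senescence, from 1 to 3 and 0 to 2 for p53, and from 0 to 0 and 0 to 1 for Hox genes.

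Of 12 primitive endoderm markers 2 were called higher than control day 3 and 6 higher than control day 5. The 2 became 1 without control day 3 replicate 1 and 0 without any of the other compared libraries. Lama1, a laminin chain, was at 1609 and 1550 in control day 3, 1502 and 1333 in control day 5, 2036 and 2115 in knockdown day 3 and 2104 and 2261 in knockdown day 5. Its excess of 0.47 over control day 3 was not called (limma adjusted p = 0.0666). Several of these markers are also fibroblast matrix genes. The counts of this paragraph stand beside 8.36% called higher and 7.08% lower than control day 3 among all genes. Of 8 trophoblast markers 1 was called higher and 1 lower, of 5 adipocyte markers 0 and 1, of 8 germ line genes 2 and 0, of 8 muscle and cartilage markers 1 and 0 and of 6 two-cell markers 0 and 0. Without any 1 of the 4 compared libraries 0 or 1 germ line gene was called higher, 0 or 1 trophoblast marker higher and 0 lower.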
